A study of Mus musculus with 20 samples.

Results

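The replication histone gene clusters of the mouse were taken as all protein-coding genes of GENCODE vM21, on the mm10 build, whose symbols start with Hist1h, Hist2h, Hist3h or Hist4h. This rule found 67 of 21938 protein-coding genes, of which 6 encode linker histone H1, 18 encode H2A, 18 encode H2B, 12 encode H3 and 13 encode H4. H3K27ac, a histone mark of active promoters and enhancers, had been mapped by ChIP-seq in face tissue of wild-type mouse embryos, and 10 H3K27ac peak lists were analysed. The tissues held mixed cells and were the mandibular process, maxillary process, medial nasal plate and lateral nasal plate at e11.5, and the mandibular process, maxillary process and nose at e13.5 and at e15.5. Each stage and tissue had 1 library, the lists held from 6571 to 25941 peaks on the autosomes, X and Y, and how many reads stood behind a list is unknown. A gene without a called peak may still carry signal below the caller's threshold, and in mixed tissue fewer marked cells and less signal per cell cannot be told apart.

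The 3 e15.5 libraries carried another tissue in their deposited file names than in their labels. The file name gave nose for the label mandibular, mandibular for the label maxillary, and maxillary for the label nose. Each library is called here by its label. Hand2, which marks the mandibular arch, carried a peak of 29625 bp in the e15.5 library labelled maxillary and none in those labelled mandibular or nose. Alx1, a gene of the frontonasal mesenchyme, carried a peak of 27009 bp in the library labelled mandibular, 6181 bp in that labelled maxillary and 4949 bp in that labelled nose. Comparisons of stage do not use the tissue label, and comparisons of nasal with jaw tissue were made without e15.5. As a check of the tissue, 6 to 8 of 8 facial mesenchyme genes had a peak in each library, against 0 or 1 of 8 marker genes of liver, heart, erythroid cells, leukocytes, endothelium, neurons and muscle, of which 6 had a peak in no library.

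Replication histones package new DNA, and their genes are transcribed mostly in S phase. The genes are short, lie in dense clusters, often occur as head-to-head H2A and H2B pairs with a shared promoter, and are made in many near-identical copies. Their mRNAs end in a conserved stem-loop in place of a poly(A) tail, and their promoters carry short elements particular to each histone class.

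The stem-loop was used to check the label, since the choice of genes by symbol did not use it. A hairpin with the arms GGNNNT and ANNNCC, fully paired over 6 bases, around a TTNN loop was sought within 150 bases after the stop codon. It was found in 63 of 67 histone genes (94.0%) and in 3 of the other 21871 protein-coding genes (0.0137%). One of these 3 was H2afx, which encodes the DNA damage variant H2A.X, and the others were H2bfm and Ttc14, all 3 named after their values were seen. No match lay in the window of Hist1h2an, Hist1h3g, Hist1h4a or Hist2h2be, which says only that these letters were not found there. The commonest form, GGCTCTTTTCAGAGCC, stood in 41 genes, while 8 H4 genes had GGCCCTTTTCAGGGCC. The sites of 6 genes are printed to show this shared tail in genes with and without an H3K27ac peak, read 5′ to 3′ on the coding strand of GRCm38 with the hairpin in capitals. They lie at chr13:21787918-21787943 (Hist1h2bp, plus strand), chr13:21779832-21779857 (Hist1h1b, minus), chr13:23531453-23531478 (Hist1h4h, plus), chr13:23696520-23696545 (Hist1h1t, plus), chr13:23934886-23934911 (Hist1h2aa, plus) and chr13:23933725-23933750 (Hist1h2ba, minus), and follow the stop codon by 28 to 40 bases.
Hist1h2bp: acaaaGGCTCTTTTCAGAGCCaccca
Hist1h1b: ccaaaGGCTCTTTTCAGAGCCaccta
Hist1h4h: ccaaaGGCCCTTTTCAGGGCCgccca
Hist1h1t: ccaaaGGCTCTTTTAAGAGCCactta
Hist1h2aa: aaaaaGGCTCTTTTCAGAGCCacctt
Hist1h2ba: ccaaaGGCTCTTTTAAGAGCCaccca

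Some promoter elements followed the histone class. In the 250 bases before the annotated start, on either strand, CCAAT stood in 18 of 18 H2A genes and 18 of 18 H2B genes, against 36.0% of all protein-coding genes. It was also found in 5 of 6 H1 genes, 9 of 12 H3 genes and 4 of 13 H4 genes. ATTTGCAT, the octamer of H2B promoters, stood in 8 of 18 H2B genes and 7 of 18 H2A genes, against 1.45% of all genes. These H2A and H2B windows overlap wherever the genes face each other, so their counts are not separate. GGTCCG, part of the H4 cell cycle element, stood in 12 of 13 H4 genes against 7.69% of all genes, and AAACACA, the H1 box, stood in 4 of 6 H1 genes against 5.66%. TATAAA was found in 34 of 67 histone genes (50.7%) against 2528 of all 21938 genes. CCAAT was found in 83.7% of the 49 histone genes with a peak in every library and in 5 of the 6 with a peak in none. Those 5 are H2A and H2B genes, which all hold CCAAT, so these counts cannot tell if CCAAT goes with marking.

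The stretch between the starts of the H2A gene Hist1h2an and the H2B gene Hist1h2bp, the pair with the widest peaks, is shown with the 250 bases before the start of the H1 gene and of the H4 gene with the widest peaks, and before those of 2 testis genes that had a peak in few libraries or none. The bases are those of GRCm38, 5′ to 3′, with every match to the 5 motifs on either strand in capitals, and no letter belongs to matches of different motifs. The positions are chr13:21787219-21787460 on the plus strand, chr13:21780626-21780875 on the minus strand for Hist1h1b, and, on the plus strand, chr13:23530800-23531049 for Hist1h4h, chr13:23695564-23695813 for Hist1h1t and chr13:23934212-23934461 for Hist1h2aa.
Hist1h2an-Hist1h2bp: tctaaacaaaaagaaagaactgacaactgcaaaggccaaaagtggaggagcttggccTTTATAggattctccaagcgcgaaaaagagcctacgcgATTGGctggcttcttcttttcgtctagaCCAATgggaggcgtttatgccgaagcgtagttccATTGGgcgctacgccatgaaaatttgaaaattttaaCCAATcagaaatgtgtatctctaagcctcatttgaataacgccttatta
Hist1h1b: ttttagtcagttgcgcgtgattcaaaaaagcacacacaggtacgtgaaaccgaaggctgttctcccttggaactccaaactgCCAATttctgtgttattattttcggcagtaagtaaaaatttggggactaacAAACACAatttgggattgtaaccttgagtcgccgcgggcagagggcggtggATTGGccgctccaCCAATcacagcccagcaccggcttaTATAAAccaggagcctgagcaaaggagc
Hist1h4h: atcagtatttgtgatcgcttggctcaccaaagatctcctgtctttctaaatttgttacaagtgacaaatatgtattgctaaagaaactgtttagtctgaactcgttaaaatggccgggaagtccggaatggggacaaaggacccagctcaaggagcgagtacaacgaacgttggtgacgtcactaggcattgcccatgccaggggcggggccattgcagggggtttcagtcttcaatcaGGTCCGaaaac
Hist1h1t: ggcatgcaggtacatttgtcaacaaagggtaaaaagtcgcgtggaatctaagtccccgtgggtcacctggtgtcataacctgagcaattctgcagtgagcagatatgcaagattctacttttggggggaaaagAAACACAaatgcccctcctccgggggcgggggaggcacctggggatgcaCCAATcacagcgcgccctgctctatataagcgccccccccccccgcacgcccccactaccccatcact
Hist1h2aa: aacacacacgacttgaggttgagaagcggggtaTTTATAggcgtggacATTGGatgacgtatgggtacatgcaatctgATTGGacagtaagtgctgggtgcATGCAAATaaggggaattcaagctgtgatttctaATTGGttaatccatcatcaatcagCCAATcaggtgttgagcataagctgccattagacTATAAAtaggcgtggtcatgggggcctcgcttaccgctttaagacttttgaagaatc

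Histone genes carried an H3K27ac peak far more often than other genes, in every library. A gene was given the peaks that overlapped it or lay within 1 kb of its start, and the widest of them gave its width. At e11.5, 59 of 67 histone genes had a peak in the mandibular process (88.1%, against 28.4% of all protein-coding genes), 58 in the maxillary process (86.6% against 23.5%), and 60 in the medial nasal plate (89.6% against 48.4%) and in the lateral nasal plate (89.6% against 49.2%). At e13.5 the numbers were 54 in the mandibular process (80.6% against 26.5%), 59 in the maxillary process (88.1% against 43.3%) and 60 in the nose (89.6% against 56.0%). At e15.5 they were 59 in the libraries labelled mandibular (88.1% against 50.2%) and maxillary (88.1% against 45.5%) and 52 in that labelled nose (77.6% against 27.1%). The share of histone genes varied much less between libraries than that of all genes, at 86.6% ± 4.10 against 39.8% ± 12.1 (SD, n = 10). A peak in all 10 libraries was found at 49 histone genes (73.1%, against 14.5% of all genes), in 1 to 9 libraries at 12, and in none at 6 (8.96%, against 37.7% of all genes).

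**Figure D1:**
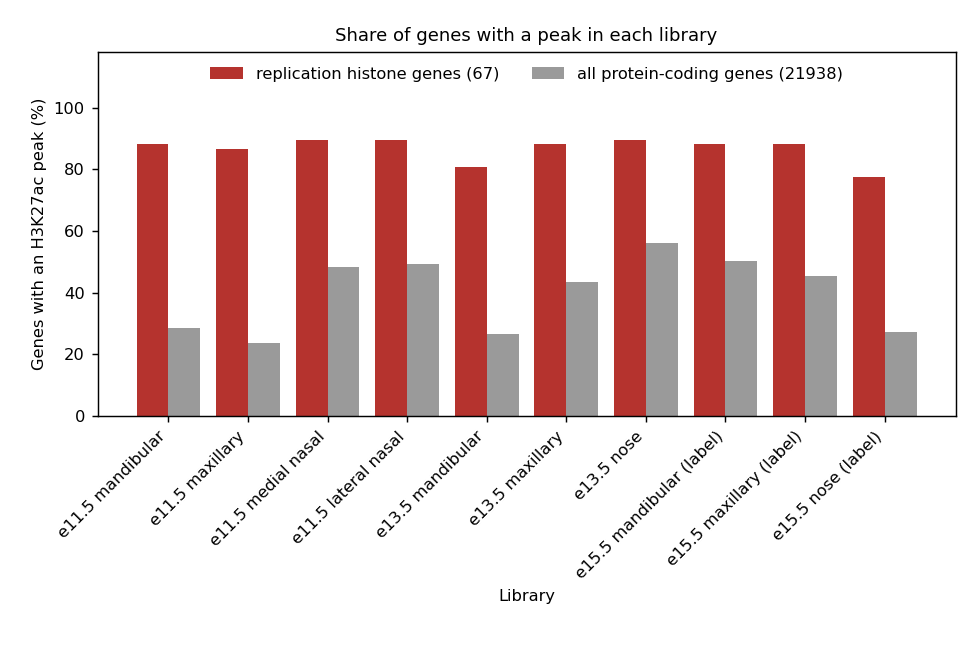
Percentage of genes with an H3K27ac peak in each of the 10 libraries, for the 67 replication histone genes (red) and all 21938 protein-coding genes (grey); e15.5 libraries carry the tissue of their label. The histone bars lie between 77.6% and 89.6%, while the bars of all genes lie between 23.5% and 56.0%.

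The peaks at histone genes were also wide. The median width at histone genes with a peak was 4793, 4639, 5257 and 5381 bp in the mandibular process, maxillary process, medial nasal plate and lateral nasal plate of e11.5. It was 4532, 5933 and 4472 bp in the mandibular process, maxillary process and nose of e13.5, and 4081, 4252 and 3776 bp in the e15.5 libraries labelled mandibular, maxillary and nose. All protein-coding genes with a peak had medians of 1508 to 2056 bp, below each of the histone medians. Ranked among all peaks of its own library, the median histone peak stood between the 92.8th and the 98.9th percentile of width. The fold enrichment of these peaks ranked lower in every library but the e15.5 library labelled maxillary, where the medians were 94.1 for fold enrichment and 93.8 for width. Its medians ran from the 67.7th percentile in the e13.5 mandibular process to the 97.1st in the e11.5 lateral nasal plate.

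Many histone genes shared a peak. The 52 to 60 marked histone genes of a library lay in 28 to 33 distinct peaks, a single peak covered up to 5 or 6 of them, and 35 to 47 lay in a peak with another histone gene. Counted once each, the distinct peaks had medians of 3146 to 4868 bp. Histone peaks were wider also at an equal number of starts. Peaks over no protein-coding start, such as those at Hist1h4m, Hist2h3c2, Hist2h2aa2, Hist2h2aa1 and Hist2h3c1, were left out of this comparison. Peaks over a single protein-coding start had medians of 2840 to 5010 bp at histone genes (8 to 10 peaks per library) and 1574 to 2038 bp elsewhere. Peaks over 3 or more starts had medians of 4634 to 8164 bp at histone genes (6 to 9 peaks per library) and 1268 to 2292 bp elsewhere (16 to 45 peaks).

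Every class was marked. A peak was present in every library at 5 of 6 H1 genes, 13 of 18 H2A genes, 12 of 18 H2B genes, 11 of 12 H3 genes and 8 of 13 H4 genes. The genes with a peak in none were 3 H2A genes, 2 H2B genes and 1 H4 gene. Over the 10 libraries the median width by class ran from 3250 to 5750 bp for H1, from 3936 to 5609 bp for H2A, from 3868 to 6868 bp for H2B, from 3447 to 7384 bp for H3 and from 3482 to 6534 bp for H4. These ranges overlap, and genes of different classes often lay under the same peak.

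**Figure D2:**
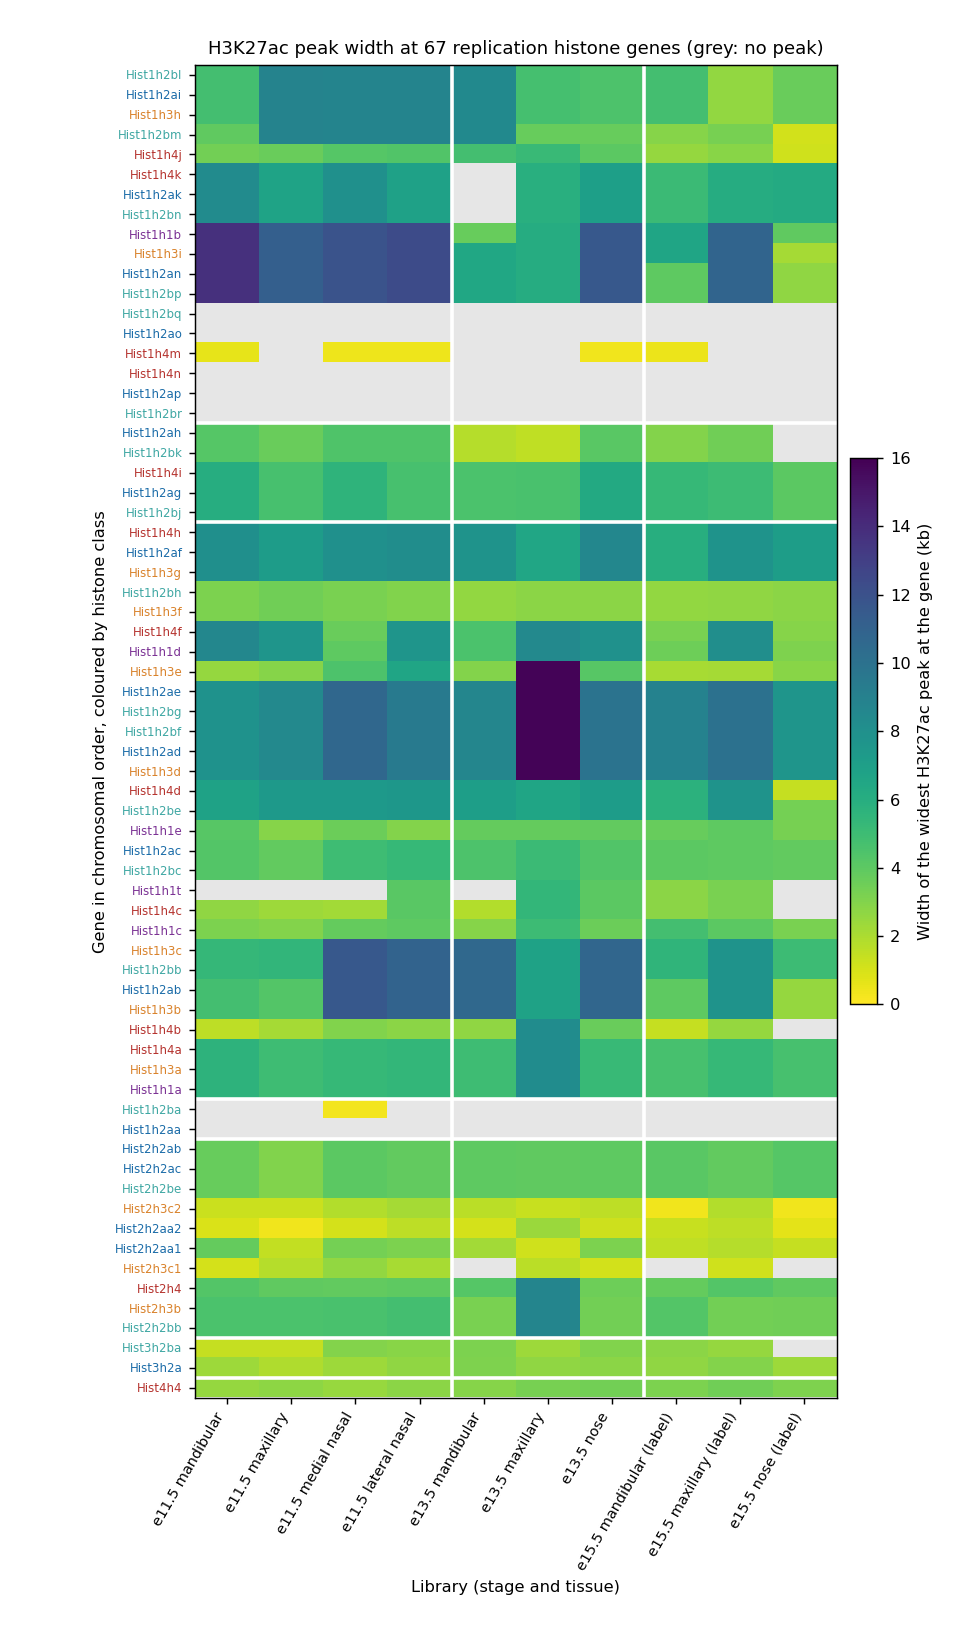
Width in kb of the widest H3K27ac peak at each of the 67 histone genes (rows, in chromosomal order, names coloured by class) in the 10 libraries (columns, by stage); grey cells have no peak and white lines part the stages and gene blocks. Blocks of neighbouring genes share the same colour where they share a peak, 6 genes are grey throughout, and the e15.5 columns labelled mandibular and nose are paler than e11.5 in the first block.

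On chromosome 13 the 54 Hist1 genes fell into 4 blocks separated by more than 100 kb. The first, from Hist1h2bl to Hist1h2br (chr13:21715763-21837530), held 18 genes in 122 kb, of which 9 had a peak in every library and 5 in none. The second, from Hist1h2ah to Hist1h2bj (chr13:22035164-22043676), held 5 genes, 3 of them with a peak in every library. The largest, from Hist1h4h to Hist1h1a (chr13:23531050-23764406), held 29 genes in 233 kb, and 26 of them had a peak in every library. The last held only the testis pair Hist1h2ba and Hist1h2aa (chr13:23933773-23934851). Hfe, an iron regulator and the only other protein-coding gene lying within these blocks, had no peak in any library.

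The widest peaks with a call in every library lay over 2 groups of Hist1 genes. In the first block, Hist1h1b (linker H1), Hist1h2an (H2A), Hist1h2bp (H2B) and Hist1h3i (H3) shared a peak of 13770, 11183, 11911 and 12320 bp in the 4 tissues of e11.5, in the order given above, and of 11617 bp in the e13.5 nose. In the largest block, Hist1h2ad and Hist1h2ae (H2A), Hist1h2bf and Hist1h2bg (H2B) and Hist1h3d (H3) shared a peak in every library. It measured 7816, 8475, 10644 and 9413 bp at e11.5, 8637, 15850 and 9886 bp at e13.5, and 8917, 10039 and 7682 bp in the e15.5 libraries labelled mandibular, maxillary and nose. The largest of these, in the e13.5 maxillary process, also took in the H3 gene Hist1h3e, which elsewhere had 2089 to 6604 bp. Hist1h2af (H2A) followed by median width, under a peak shared with Hist1h4h (H4) and Hist1h3g (H3). It had 8030, 7176, 7968 and 8164 bp at e11.5, 7771, 6534 and 8618 bp at e13.5, and 5990, 7781 and 7096 bp at e15.5.

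Head-to-head gene pairs mostly lay under a shared peak. Of 13 pairs whose starts face each other within 1000 bp, 12 joined an H2A with an H2B gene and 1 joined the H2B gene Hist1h2bh with the H3 gene Hist1h3f, with 175 to 659 bases between starts. A single peak covered both starts in 8 to 10 libraries for 10 of the 13 pairs. In each of these pairs the starts lie closer together than the median width of the peaks. A peak over 1 start would then often cover the other, so these counts do not show joint marking beyond that distance. The other 3 pairs, Hist1h2bq with Hist1h2ao, Hist1h2ap with Hist1h2br, and the testis pair, had no shared peak in any library.

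The unmarked histone genes were mostly copies with little unique sequence. In Hist1h2bq and Hist1h2br (H2B) and Hist1h2ao and Hist1h2ap (H2A), 0% of the 50-base windows of the gene and the 1 kb around its start occur once in chromosomes 1 to 19, X and Y. In Hist1h4n (H4) the share was 8.04%, and in its near copy Hist1h4m, which had peaks of 359 to 598 bp in 5 libraries, it was 7.02%. In the Hist2 locus, Hist2h3c2 (23.2%), Hist2h2aa2 (42.8%), Hist2h3c1 (44.8%) and Hist2h2aa1 (45.6%) were next, and their median widths were 1117 to 1982 bp. The remaining 57 histone genes had 60.6% or more unique windows, and 80.7% of them had a peak in every library. The sixth unmarked gene, the testis gene Hist1h2aa, had 92.9%. How reads that match several places were treated is not given in the sources used here, and the part of this in the missing peaks was not tested. Leaving out the 10 genes with less than 50% unique windows raised the share with a peak to 94.4% on average over the 10 libraries.

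**Figure D3:**
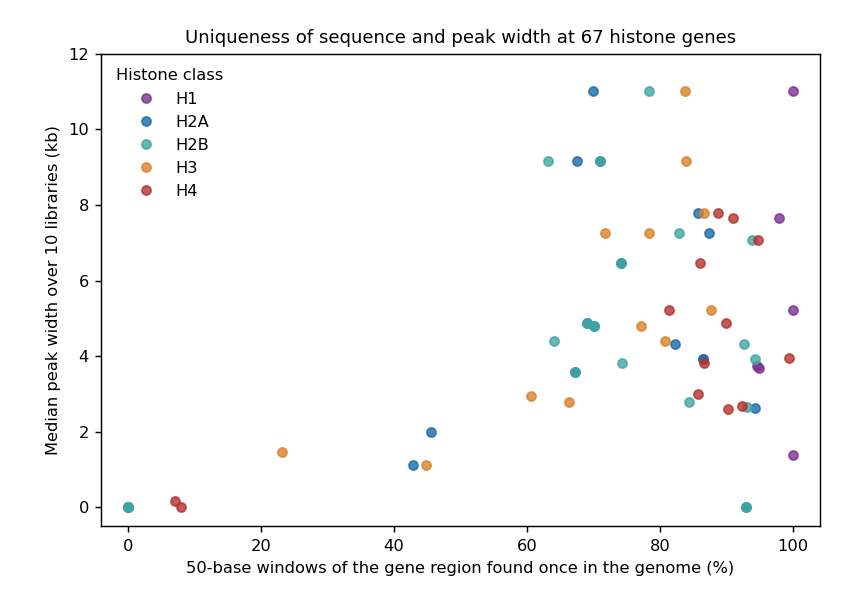
Median H3K27ac peak width over the 10 libraries in kb (0 where most libraries had no peak) against the percentage of 50-base windows of the gene region that occur once in the genome, for the 67 histone genes coloured by class. The 10 genes below 50% lie at or under 2 kb, and the genes above 60% spread from 0 to 11 kb.

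The e15.5 libraries had narrower peaks at histone genes than the e11.5 libraries, while peaks at genes in general were wider. The mean of the library medians was 5018 bp ± 357 at e11.5 (SD, n = 4), 4979 bp ± 827 at e13.5 (n = 3) and 4036 bp ± 241 at e15.5 (n = 3), and each e15.5 median lay below each e11.5 median. Counted over distinct peaks, the difference between e15.5 and e11.5 went from −981 to −508 bp and the stages overlapped, with 3146 to 3746 bp at e15.5 and 3643 to 4217 bp at e11.5. For all genes with a peak, the mean was 1681 bp ± 129 at e11.5, 1900 bp ± 77.3 at e13.5 and 1963 bp ± 151 at e15.5. The median percentile of histone peaks was 97.5 to 98.9 at e11.5, 95.0 to 98.4 at e13.5 and 92.8 to 93.9 at e15.5. The share of histone genes with a peak moved by less than the spread between libraries, at 88.4% ± 1.43, 86.1% ± 4.80 and 84.6% ± 6.03. Libraries of a stage are different tissues, so these SDs and the p-values below measure the spread between tissues as well as between samples, and it is not stated in the labels if the embryos were shared between tissues.

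**Figure D4:**
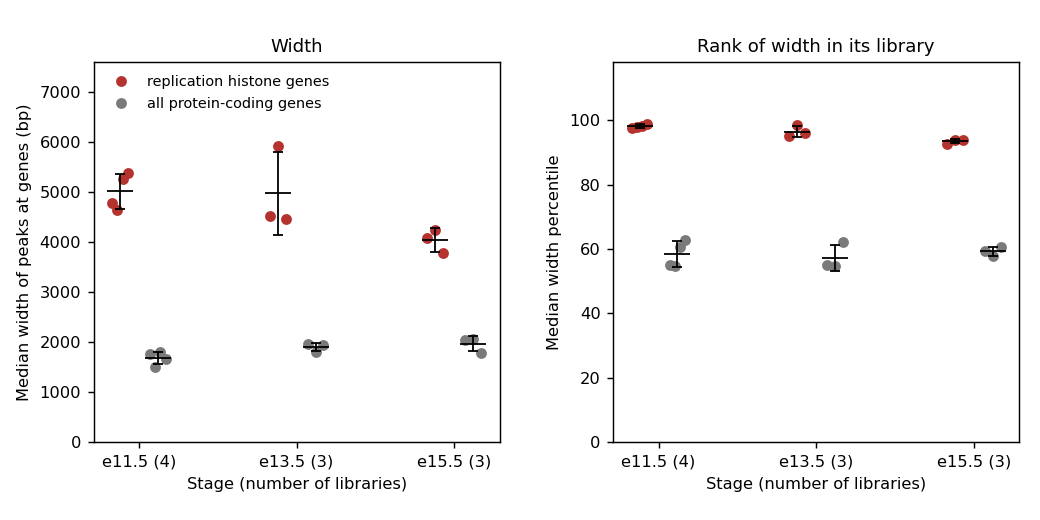
Left, median width in bp of H3K27ac peaks at genes with a peak, right, median percentile of that width among all peaks of the library, for replication histone genes (red) and all protein-coding genes (grey); points are libraries, and black bars give the mean and SD of the 4, 3 and 3 libraries of each stage. The e15.5 histone points, 3776 to 4252 bp, lie below the e11.5 points, 4639 to 5381 bp, while the grey points rise from a mean of 1681 to 1963 bp.

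Gene by gene, no change of width over embryonic day passed the test. The slope of width over day was tested for 13669 genes with a peak in at least 1 library, 61 of them histone genes, by exact permutation of the stages among libraries (two-sided, 4200 arrangements, p adjusted by Benjamini-Hochberg). At an adjusted p under 0.05 the calls were 0 of 13669 (0.0%), and the smallest adjusted p was 0.136 over all genes and 0.290 over the histone genes. At an unadjusted p under 0.05 there were 1224 genes, among them 11 histone genes, of which 10 had a negative slope (127 of all genes, 0.929%). These 10 became 16 without the e15.5 library labelled maxillary and 6 without that labelled nose. The direction of the slopes is therefore given only as a description. It was negative in 46 of 61 histone genes (75.4%, against 30.6% of all genes tested), with a median of −0.20 kb per day against 0.06 kb per day. All e15.5 widths lay below all e11.5 widths in 18 histone genes (29.5%, against 1.09% of genes) and above them in 1, Hist4h4 (7.16% of genes). Neighbours share peaks, and the 18 genes stand in 7 of 28 regions joined by shared peaks. The count rose to 33 without the e15.5 library labelled maxillary, and lay between 18 and 24 without any other single library. Without all e15.5 libraries the slope from e11.5 to e13.5 was negative in 29 of 61 histone genes (47.5%), against 26.0% of all genes.

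The change was larger among the wide peaks. Of the 49 histone genes with a peak in every library, 41 had a lower mean width at e15.5 than at e11.5, against 24.0% of the 3171 such genes, with a median difference of −0.78 kb against 0.33 kb. All 16 of these histone genes with a mean width of 4 to 6 kb and all 20 with 6 kb or more were narrower at e15.5, against 22.1% and 32.3% of other genes of the same width. Among those of 2 to 4 kb, 4 of 11 were narrower. Neighbours share peaks, so these genes are not separate cases. For Hist1h2ae, Hist1h2bg, Hist1h2bf, Hist1h2ad and Hist1h3d, counted among the 20, the difference was within the spread. Their shared peak had means of 9.09 kb ± 1.23 at e11.5 and 8.88 kb ± 1.18 at e15.5 (SD), and its slope over day was 0.0019 kb per day. In rank of width within a library the shift was broader, but ranks have a ceiling. At e11.5 the library medians of histone peaks stood at percentiles of 97.5 to 98.9, against 54.8 to 62.8 for all genes. Histone ranks therefore had more room to fall than to rise, and the part of this in the counts was not tested. The percentile slope was negative in 57 of 61 histone genes (93.4%, against 43.4% of all genes), and it passed an unadjusted p of 0.05 in 26 (2.99% of all genes, counting negative slopes), with 0 genes at an adjusted p under 0.05. All e15.5 percentiles lay below all e11.5 percentiles in 32 histone genes (3.09% of all genes), in 13 regions. The opposite held for 0 histone genes and for 3.79% of all genes.

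**Figure D5:**
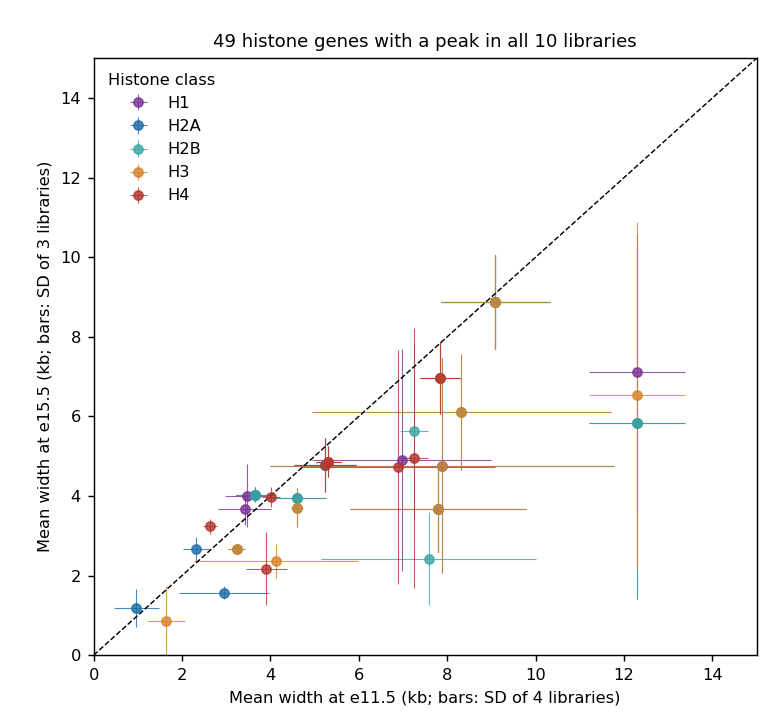
Mean peak width in kb at e15.5 against that at e11.5 for the 49 histone genes with a peak in all 10 libraries, coloured by class, with bars for the SD over 4 and 3 libraries and a dashed line of equal width; genes that share peaks fall on the same point. Of the 49 genes 41 lie below the line, with the 4 genes near 12.3 kb at e11.5 farthest from it and with long vertical bars.

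The narrowing was largest in the first chromosome 13 block. Its 13 marked genes all had a negative slope, and in 12 of them the e15.5 widths lay below the e11.5 widths. The library medians of this block averaged 8670 bp ± 248 at e11.5 and 4858 bp ± 1213 at e15.5. In the second block all 5 slopes were negative and the stages did not overlap in 2 genes. The averages of the second block were 5239 bp ± 696 and 4776 bp ± 675, which differ by less than the spread. In the largest block the slope was negative in 21 of 29 genes and the stages did not overlap in 2. Its averages were 6166 bp ± 1004 and 5555 bp ± 1921, which differ by less than the spread. In the Hist2 locus 5 slopes were negative and 5 positive, with averages of 3636 bp ± 421 and 3645 bp ± 378.

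Hist1h2bh (H2B) and Hist1h3f (H3), a head-to-head pair of the largest block, had the smallest p among histone genes. Their shared peak measured 3164, 3494, 3231 and 3057 bp at e11.5, 2580, 2767 and 2776 bp at e13.5, and 2563, 2649 and 2797 bp at e15.5, with all e11.5 values above all later values. The means were 3.24 kb ± 0.186 (SD, n = 4) and 2.67 kb ± 0.118 (n = 3) at e11.5 and e15.5, and the slope was −0.15 kb per day (exact permutation p = 0.00524, adjusted p = 0.290). The pair was named after its values were seen.

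The steepest negative slopes were at Hist1h2an and Hist1h2bp, followed by Hist1h3i, Hist1h1b and Hist1h2bm. At Hist1h2an and Hist1h2bp the shared peak of 11183 to 13770 bp at e11.5 became 6493, 6107 and 11617 bp in the mandibular process, maxillary process and nose of e13.5. At e15.5 it measured 3980, 10860 and 2633 bp under the labels mandibular, maxillary and nose, so every e15.5 value was below every e11.5 value but 1 library came close. The slope was −1.64 kb per day (exact permutation p = 0.0193, adjusted p = 0.409). Hist1h3i had the same widths at e11.5 and 6563, 10860 and 2156 bp at e15.5, with a slope of −1.47 kb per day (exact permutation p = 0.0257, adjusted p = 0.448). Hist1h1b had 6563, 10860 and 3935 bp at e15.5 and a slope of −1.35 kb per day (exact permutation p = 0.0557, adjusted p = 0.538). Where the long peak was broken up, these neighbours came to lie in different peaks of the same library.

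Hist1h2bm, an H2B gene at the start of the same block, shared peaks of 8819, 8810 and 8750 bp with Hist1h2bl, Hist1h2ai and Hist1h3h in the e11.5 maxillary process, medial nasal plate and lateral nasal plate. In the e11.5 mandibular process it had 3934 bp, apart from the other 3. At e13.5 it had 8412, 3721 and 3717 bp, and at e15.5 2905, 3279 and 1090 bp, below all e11.5 values. Its slope was −1.28 kb per day (exact permutation p = 0.0157, adjusted p = 0.392). For Hist1h2bl, Hist1h2ai and Hist1h3h the stages were parted by a small margin, since the lowest e11.5 width was 4793 bp and the highest at e15.5 was 4783 bp.

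The slope was positive in 15 of the 61 histone genes tested (24.59%, against 69.45% of all genes). It was steepest at Hist1h1t, at 0.28 kb per day, a gene with a peak in only 5 libraries (exact permutation p = 0.531). Hist4h4, the lone H4 gene of chromosome 6 (chr6:136801553-136804415), had 2534, 2743, 2456 and 2773 bp at e11.5, 2925, 3260 and 3377 bp at e13.5 and 3165, 3458 and 3081 bp at e15.5. Its e11.5 values all lay below its later values, with means of 2.63 kb ± 0.156 at e11.5 (SD, n = 4) and 3.24 kb ± 0.198 at e15.5 (n = 3) and a slope of 0.16 kb per day (exact permutation p = 0.00905, adjusted p = 0.346). In width percentile its slope was not past the unadjusted threshold (exact permutation p = 0.416). Hist1h1c, an H1 gene of the largest block, had 3159, 2950, 3765 and 3988 bp at e11.5 and 4786, 4026 and 3210 bp at e15.5, and these values overlap (slope 0.14 kb per day, exact permutation p = 0.349). Hist2h2ab and Hist2h2ac, H2A genes under a shared peak with the H2B gene Hist2h2be, had 3018 to 4049 bp at e11.5 and 3832 to 4198 bp at e15.5, also with overlap (slope 0.10 kb per day, exact permutation p = 0.0960).

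Presence of a peak was tested over embryonic day in the same way. The 49 histone genes with a peak in every library had no slope, 11 had a negative slope and 1, Hist1h1t, a positive slope. Of all genes tested, 31.2% had a negative and 45.6% a positive slope. No gene had an adjusted p under 0.05 in the exact permutation test (smallest adjusted p = 1.0), and at an unadjusted p under 0.05 there were 162 of all genes and 0 histone genes.

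Nasal and jaw tissues of e11.5 and e13.5 had close shares of marked histone genes. The 3 nasal libraries had 60 histone genes with a peak each, and the 4 jaw libraries had 54 to 59, while all genes had a peak in 51.2% ± 4.17 of cases in nasal and 30.5% ± 8.82 in jaw libraries. The nasal lists held 20492 to 25941 peaks and the jaw lists 6571 to 10753. A difference between tissues therefore cannot be told apart from one in the number of peaks called, for all genes as for histone genes. The mean of library medians at histone genes was 5037 bp ± 493 in nasal (SD, n = 3) and 4974 bp ± 648 in jaw libraries (n = 4), which differ by less than the spread. The mean width was larger in nasal libraries in 44 of 61 histone genes (72.1%), against 91.2% of all 13169 genes tested. That gap depended on the measure, since it was 68.3% against 63.9% with the same number of peaks from each library and 95.1% against 94.9% for width percentiles. All nasal widths exceeded all jaw widths in 4 histone genes (6.56%, against 17.2% of genes). A peak was more often present in nasal than in jaw libraries at 7 histone genes, less often at 0 and equally often at 54. Of all genes tested, 70.0% had a peak more often in nasal and 2.12% more often in jaw libraries. For width, no gene had an adjusted p under 0.05 by exact permutation (two-sided, 35 arrangements) (1324 genes and 0 histone genes had an unadjusted p under 0.05). The smallest p that these arrangements allow is 0.0286, and the smallest exact p of a histone gene was 0.0571.

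The 4 separated genes were Hist1h3c and Hist1h3b (H3), Hist1h2bb (H2B) and Hist1h2ab (H2A), which shared a peak of 11579, 10884 and 10735 bp in the medial nasal plate, the lateral nasal plate and the e13.5 nose. In the jaw libraries Hist1h2ab and Hist1h3b had 4779 and 4269 bp in the mandibular and maxillary process of e11.5, and 10599 and 6767 bp in those of e13.5. The e13.5 mandibular process thus came close to the lowest nasal value. Nasal minus jaw was 4.46 kb for Hist1h2ab and Hist1h3b and 4.03 kb for Hist1h2bb and Hist1h3c (exact permutation p = 0.0571). Hist1h1b had the next largest difference, 3.26 kb (exact permutation p = 0.343), and its nasal values of 11617 to 12320 bp lay inside the jaw range of 3698 to 13770 bp.

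The largest differences towards jaw came from a single library. Hist2h4 (H4) had 8735 bp in the e13.5 maxillary process and 3927 to 4298 bp in the other 3 jaw libraries, against 3530 to 3956 bp in nasal libraries (nasal minus jaw −1.52 kb, exact permutation p = 0.314). Hist2h3b (H3) and Hist2h2bb (H2B) lay under the same 8735 bp peak, with −0.98 kb (exact permutation p = 0.857). Hist1h3e, with 15850 bp in that library and 2525 to 2999 bp in the other jaw libraries, also had −0.98 kb (exact permutation p = 1.0). Hist1h4f (H4) had 4508 to 8576 bp in jaw and 3678 to 7920 bp in nasal libraries (−0.89 kb, exact permutation p = 0.486).

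The smaller loci were marked with narrower peaks. The 10 Hist2 genes of chromosome 3 (chr3:96219865-96270132) lie within 50.3 kb, and 9 had a peak in every library. Their library medians ran from 3018 to 4081 bp, against 3868 to 7509 bp for the Hist1 genes. Hist2h3c1 lacked a peak in the e13.5 mandibular process and in the e15.5 libraries labelled mandibular and nose, and had 1015 to 2569 bp elsewhere. Hist2h3c2 had 346 to 2165 bp, Hist2h2aa2 had 365 to 2377 bp and Hist2h2aa1 had 1164 to 3776 bp, and these 4 genes are the near copies named above. On chromosome 11, the H2A gene Hist3h2a had 1921 to 3083 bp in all libraries, and the H2B gene Hist3h2ba had 1383 to 3160 bp in 9 and no peak in the e15.5 library labelled nose.

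The testis histone genes were the least marked among those with unique sequence. Hist1h2aa, the testis H2A, had no peak, and Hist1h2ba, the testis H2B that faces it, had a peak of 294 bp in the medial nasal plate alone. The stretch before Hist1h2aa printed above holds CCAAT and TATAAA as well as the octamer. Hist1h1t, the testis H1, had a peak in 5 libraries, of 4077 bp in the lateral nasal plate, 5410 and 4045 bp in the e13.5 maxillary process and nose, and 2757 and 3204 bp in the e15.5 libraries labelled mandibular and maxillary. In each of these 5 libraries that peak was the same as at the neighbouring H4 gene Hist1h4c, which also had 1838 to 2631 bp in 4 libraries in which Hist1h1t had none.

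Genes of related function had narrower peaks. Of 13 genes listed as replacement histone genes, 6 had a peak in all 10 libraries and 2 in none, with library medians of 1887 to 2974 bp. Of 20 genes that control histone genes or process their mRNAs, 6 had a peak in all libraries, with medians of 1198 to 2039 bp, and of 41 DNA replication genes 8 did, with medians of 1303 to 2194 bp. Each of these medians lay below the lowest histone median of 3776 bp. Their width slopes were negative in 3 of 11, 4 of 20 and 21 of 41 genes, against 30.6% of all genes tested and 75.4% of histone genes. The share in the DNA replication genes thus lay between those of all genes and of histone genes. The largest slopes of the first list were −0.32 kb per day at H2afz (H2A.Z), 0.31 at H3f3a (H3.3), 0.29 at H1f0, a linker histone, and 0.19 at Cenpa, the centromeric H3. In the second they were 0.38 at E2f1, an S-phase transcription factor, −0.27 at Ccne2 (cyclin E2), 0.26 at Npat, the coactivator of histone genes, and 0.26 at Yy1, a transcription factor. In the last they were 0.46 at Mcm6, a helicase subunit, −0.31 at Cdc6, which loads the helicase, −0.28 at Rrm2, a subunit of ribonucleotide reductase, and 0.24 at Pola1, the catalytic subunit of DNA polymerase alpha. None passed at an adjusted p under 0.05 in the exact permutation test. Wide peaks were not particular to histone genes. The 8 facial mesenchyme genes had library medians of 6630 to 12250 bp, above the highest histone median of 5933 bp. The mean of these medians was 10950 bp at e11.5 and 9268 bp at e15.5. Slopes were negative at 4 of these genes and positive at 4, where 30.6% of all genes tested had a negative one. Of these 8 genes, Tbx2 and Twist1 had all e15.5 widths below all e11.5 widths. Among all genes tested this held for 1.09%, and among histone genes for 29.5%. At e15.5 Tbx2 had 16567 and 15537 bp under the labels mandibular and maxillary, and no peak under the label nose.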

How the data were processed

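Broad peaks of H3K27ac ChIP-seq from 10 libraries were analysed, 4 of e11.5, 3 of e13.5 and 3 of e15.5. Per the submitters' processing notes, BWA 0.7.7, SAMtools 0.1.19 and MACS2 2.2.4 were used with mm10. The settings for mouse peak calls and multiply aligned reads are not given in the sources used here. Each deposited list gave a peak's position with a score, a ratio (fold enrichment) and −log10 p-values and q-values from the authors' peak caller, and the smallest −log10 q was 1.30. Libraries were not pooled, inputs were not analysed here, and without read counts the depth is unknown. Of 144896 peaks, 144852 lay on the autosomes, X and Y and were used. In 208 of 208 pairs of library and chromosome the last peak ended inside the GRCm38 chromosome.

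A gene of GENCODE vM21 received each peak that overlapped it or lay within 1 kb of its start, and its width was that of the widest, or 0. Width, presence and width percentile were regressed on embryonic day, and nasal was compared with jaw tissue, by exact permutation of libraries with Benjamini-Hochberg adjustment over all genes with a peak. The script was tested on simulated data. Python 3.11.15, numpy 2.4.6, pandas 2.3.3 and matplotlib 3.10.9 were used. Sequences were read from GRCm38. No protein sequence was used here.

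Genes named singly were the 10 widest with a peak in all libraries, those with a peak in none, the 5 with the most positive and the 5 with the most negative slope, the 5 with the largest nasal or jaw difference each way, the Hist2, Hist3, Hist4 and testis genes, and up to 4 genes of each other list by size of slope. Other genes are named where they share a peak, a sequence feature or a pair with these. Members and lists were chosen with earlier results of these data known. Alternatives were a stricter threshold (−log10 q from 2 upwards), equal numbers of peaks, other windows and measures, distinct peaks or starts, leaving out libraries, and, chosen after seeing the data, leaving out genes with little unique sequence.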

Additional observations from a re-analysis of the deposited data

Results flagged for a closer look

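Of 51 sets of library values examined, 8 had a library far from the others. Many of the sets were widths of genes named for extreme widths, slopes or regional differences in these same data. A set with a peak in a single library is always marked. For both reasons the number expected by chance is not known. Histone genes that share a peak are counted once where their widths are the same.

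Among the 4 libraries of e11.5, Hist1h2bm had 3934 bp in the mandibular process and 8750 to 8819 bp in the others. Hist1h1t had 4077 bp in the lateral nasal plate and Hist1h2ba had 294 bp in the medial nasal plate, with 0 in the other libraries of that stage.

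In jaw tissue of e11.5 and e13.5 (4 libraries), the e13.5 maxillary process stood apart at 5 places. Hist1h3e had 15850 bp there and 2525 to 2999 bp in the others. Hist1h2ae, Hist1h2bg, Hist1h2bf, Hist1h2ad and Hist1h3d lay under the same peak of 15850 bp, against 7816 to 8637 bp. Hist1h1t had 5410 bp against 0, Hist1h1c had 5010 bp against 2933 to 3159 bp, and Hist2h4 had 8735 bp against 3927 to 4298 bp.

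From e11.5 to e13.5 the median width at histone genes moved by −261 bp in the mandibular process, from 4793 to 4532 bp, and by 1294 bp in the maxillary process, from 4639 to 5933 bp. With 1 library for each, this difference in direction was not tested.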

How the results depend on the processing

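Of 334 values under an alternative, 311 stayed close to the reported value and 23 moved. Counts and percentages were judged by their ratio to the reported value. Mean shares, median widths and the stage difference were judged by the SD between libraries. Only the stage difference in median width could change sign, and it did not. Counts of called genes that stayed at 0 are among the close values. The mean share of histone genes with a peak, 86.6%, became 82.4% with a −log10 q of at least 2, 80.3% with the 6571 highest-ranked peaks of every library, 90.8% over 38 distinct start sites, and 94.4% without the 10 genes of little unique sequence. The median width of 4712 bp became 3879 bp, and the difference of e15.5 from e11.5 went from −981 to −508 bp, over distinct peaks, since peaks that cover several genes then count once. The count of histone genes whose e15.5 widths all lay below the e11.5 widths went from 18 to 32 for width percentiles. Without all e15.5 libraries, negative slopes went from 46 to 29 of 61. The cause was not tested for the other shifts.

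Leaving out each library in turn gave shares of 86.2 to 87.6%, median widths of 4576 to 4816 bp, stage differences of −1107 to −851 bp, 43 to 52 negative slopes, 18 to 33 histone genes without overlap, with 33 reached without the e15.5 library labelled maxillary, 40 to 55 wider in nasal libraries and 49 to 54 with a peak in all libraries. The number of genes at an adjusted p under 0.05 was 0 in each. No fit with a replicate block was made, since each group of the labels has 1 library, and fits blocked by tissue or by stage were not run.

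With 1 library for each stage and tissue and unknown read depth, stage cannot be told apart from differences between individual libraries.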
